A study of Bos indicus and Bos taurus with 17 samples.

Results

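The heat shock genes described here are 10 genes chosen by name: the transcription factor gene HSF1, the HSP70 and HSP110 genes HSPA8, HSPA4 and HSPH1, the HSP90 genes HSP90AA1 and HSP90AB1, the co-chaperone gene DNAJB1, the small heat shock protein gene HSPB1, and the chaperonin genes HSPD1 and HSPE1. They were looked up among 21631 distinct gene names, and where a name had several entries the entry with the highest mean over all groups was taken. Of the 10 genes, 9 were found and 8 had a value above 0. Milk epithelial cells came from Kashmiri and Jersey cattle, a native and an exotic dairy breed, at 3 stages of lactation: day 15 (D15, March), day 90 (D90, July) and day 250 (D250, December). The labels list 17 samples, 3 for each breed and day except 2 for Jersey at D90, and give lactation number 2 or 3. The study's methods instead describe 3 cows of each breed in lactation 3, sampled on all 3 days. By that account the days are repeated samples of the same cows. By the labels lactation number was uneven. All 3 Kashmiri samples of D90 and all 3 Jersey samples of D250 were from lactation 2. The same was given for 1 of 3 Kashmiri samples at D15 and at D250. In Jersey cows it was given for 2 of 3 samples at D15 and 1 of 2 at D90. The labels give no treatment of the cows, and all cells had been captured from milk with beads carrying an antibody against keratin 18, a cytoskeletal protein of epithelial cells. All samples of 1 day carried the same month, so stage of lactation and season cannot be told apart, and every difference between days below is also a difference between months.

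Heat shock proteins are molecular chaperones, which bind unfolded or newly made proteins and help them to fold, to be held in solution or to be degraded. In unstressed cells the factor HSF1 is held inactive by chaperones, and when heat or other stress unfolds proteins those chaperones are drawn away, so that HSF1 forms trimers, enters the nucleus and switches on heat shock genes. In dairy cattle, expression of these genes in blood and mammary cells is commonly measured in studies of summer heat. Some members, HSPA8 among them, are made at a high level in cells without stress, and the activity of HSF1 is set mainly by the state of its protein and less by the amount of its mRNA. The proteins of HSPD1 and HSPE1 work in mitochondria, so the name cytosolic holds for the other 6 measured genes.

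Expression was given as FPKM, a read count scaled to transcript length and to library size, as 1 value for each breed and day over the cows of that group. There is therefore no spread between cows beside any value, and no test could be made from these values. A single cow may carry a group value, and the number of reads behind each value is unknown. The study's own tests between groups, made with Cuffdiff, were not used here. A gene was counted as past 2-fold where its log2 ratio, taken after adding 1 to each FPKM, was 1 or more in size and at least 1 of the compared groups reached 1 FPKM. The FPKM values summed to between 533249 and 1023150 over all entries in the 6 groups, and the upper quartile of FPKM ran only from 17.5 to 24.8, so the ratios were also taken after rescaling by the upper quartile (the upper quartile scale) or by the sum over named genes without 6 milk protein genes (the sum scale). The epithelial label was not equally borne out in all groups. Keratin 18 (KRT18) itself was at 51.3, 9.13 and 11.5 FPKM in Kashmiri and at 33.7, 1.59 and 4.51 FPKM in Jersey cows on the 3 days. The casein genes CSN2 and CSN1S1 mark secreting mammary cells. They were listed at 0 in 5 groups and at 1068 and 949 FPKM in Jersey July. The study itself lists both among its most highly expressed genes in all 6 groups. Casein values were therefore not read as levels. By quantitative PCR at D90, the study found KRT18 and CSN2 higher in captured cells than in milk cells before capture. Markers of leucocytes, red blood cells and macrophages were lower in the captured cells.

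The 8 measured genes differed far more from each other than across days. HSPA8 was the highest of them in Kashmiri cows on all 3 days and in Jersey cows at D90, and in these 4 groups the order by FPKM was the same: HSPA8, HSPB1, HSP90AA1, HSPE1, HSPD1, HSPH1, HSF1 and HSPA4. In Jersey cows HSPB1 was first at D15 and HSP90AA1 was first at D250. With 1 value a group, it cannot be said which neighbours in this order differ beyond the spread between cows. The 8 genes together summed to 1404, 2270 and 1557 FPKM in Kashmiri cows and to 1831, 2426 and 1503 FPKM in Jersey cows at D15, D90 and D250, so that the D90 sum was the highest of the 3 days in both breeds, except that Kashmiri December (2317) passed July (2087) after rescaling to the summed FPKM described below. HSPA8 made up 36.4%, 50.3% and 40.0% of that sum in Kashmiri and 29.2%, 43.2% and 31.1% in Jersey cows.

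**Figure D1:**
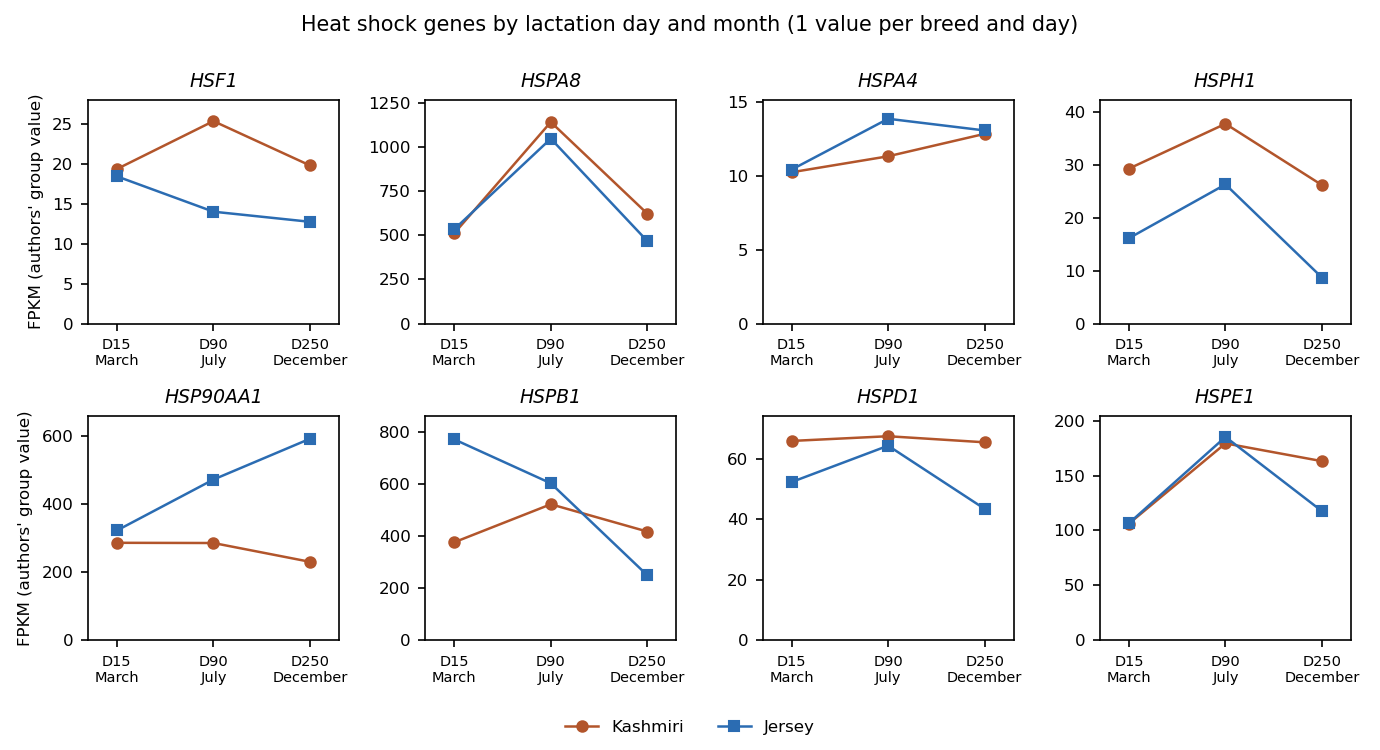
FPKM (vertical axis, from 0, a separate scale for each gene) of the 8 measured heat shock genes on each day and month of sampling, with 1 authors' group value for each breed (circles Kashmiri, squares Jersey) and no error bar because no value per cow was used. HSPA8 was highest in July in both breeds on this and both rescaled axes, and HSPH1, HSPD1 and HSPE1 were highest in July in both on this axis, with Kashmiri December above July after rescaling to the summed FPKM and, for HSPD1, also by the upper quartile.

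HSF1, the master regulator of the response, was expressed at a modest level. It stood at 19.4, 25.4 and 19.8 FPKM on the 3 days in Kashmiri cows and at 18.5, 14.0 and 12.8 FPKM in Jersey cows. The breeds were thus close in March, and in July the Kashmiri value was the highest of the 6 and the Jersey value lay below its own March value. Its highest group was 1.99 times its lowest.

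HSPA8 encodes the constitutive HSP70, HSC70, which folds new proteins, uncoats clathrin vesicles and delivers proteins to the lysosome. Its level was 511, 1141 and 622 FPKM in Kashmiri cows and 534, 1047 and 467 FPKM in Jersey cows on the 3 days. Both July values lay above all 4 values of March and December. From D15 to D90 it was 2.23-fold higher in Kashmiri (log2 ratio 1.16) and 1.96-fold higher in Jersey cows (log2 ratio 0.97). From D90 to D250 its FPKM went to 0.545 of the July value in Kashmiri (log2 ratio -0.87) and to 0.446 of it in Jersey cows (log2 ratio -1.16). Against the median of all genes in the same comparison, HSPA8 stood at 1.16 and -0.91 on the log2 scale in Kashmiri and at 1.04 and -1.31 in Jersey cows.

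HSPH1 and HSPA4 belong to the HSP110 branch, large relatives of HSP70 that help it to exchange ADP for ATP. HSPH1 was at 29.3, 37.7 and 26.2 FPKM in Kashmiri cows and at 16.1, 26.3 and 8.68 FPKM in Jersey cows on the 3 days. Its July value was the highest in each breed, the Kashmiri value was above the Jersey value on each day, and its 4.35-fold range over the 6 groups was the widest of the 8 genes. HSPA4 was at 10.3, 11.3 and 12.9 FPKM in Kashmiri cows and at 10.4, 13.9 and 13.1 FPKM in Jersey cows, the narrowest range of the 8 at 1.35-fold. The ratio of HSPH1 to HSPA4, both given per transcript length, was therefore 2.85, 3.33 and 2.03 in Kashmiri cows against 1.54, 1.89 and 0.663 in Jersey cows.

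HSP90AA1 encodes the stress-inducible form of cytosolic HSP90, which matures kinases and steroid receptors. It was at 286, 285 and 230.0 FPKM in Kashmiri cows and at 322, 472 and 592 FPKM in Jersey cows on the 3 days. Kashmiri values were nearly equal in March and July and lower in December, whereas each later Jersey value was higher than the one before (December was just below July on the sum scale). No entry used here carried the name HSP90AB1, the constitutive HSP90 gene, so HSP90AB1 was not analysed here. DNAJB1, an HSP40 co-chaperone that loads substrates onto HSP70, was listed at 0 in all 6 groups. A value of 0 was not read as absence, since GAPDH, a glycolytic gene that every cell uses, was also listed at 0 in 4 groups and at 0.00903 and 0.0328 FPKM in Jersey cows at D15 and D90. Of 457 names that reached 500 FPKM in some group, 36 (7.88%) were listed at 0 in another.

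HSPB1 encodes the small heat shock protein HSP27, which holds unfolding proteins in solution and protects actin filaments. It was at 376, 522 and 417 FPKM in Kashmiri cows and at 771, 603 and 249 FPKM in Jersey cows on the 3 days. The July value was thus the highest in Kashmiri cows, whereas in Jersey cows the order ran from March down to December and the December value was the lowest of all 6. HSPD1 (HSP60) and HSPE1 (HSP10) form the mitochondrial chaperonin and its lid, and are commonly transcribed from a shared promoter. HSPD1 was at 65.8, 67.4 and 65.4 FPKM in Kashmiri and at 52.3, 64.3 and 43.4 FPKM in Jersey cows. HSPE1 was at 106, 179 and 163 FPKM in Kashmiri and at 107, 185 and 118 FPKM in Jersey cows. Although both were highest in July in both breeds, their ratio was not constant: HSPE1 over HSPD1 was 1.61, 2.66 and 2.49 in Kashmiri and 2.04, 2.88 and 2.71 in Jersey cows at D15, D90 and D250, lowest in March in each breed.

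The first comparison between days is March (D15) with July (D90). In Kashmiri cows 7 of the 8 genes had a log2 ratio above 0, beside 49.8% of all 11297 genes tested, HSP90AA1 being the exception at -0.00. The median of the 8 was 0.36 beside -0.01 for all genes. HSPA8 alone was past 2-fold, where 33.5% of all genes were past 2-fold in either direction. In Jersey cows 6 of the 8 genes were above 0, beside 47.6% of 11080 genes, HSF1 (-0.37) and HSPB1 (-0.36) being below. The median of the 8 was 0.46 beside -0.07 for all genes. No measured member was past 2-fold in Jersey cows, against 29.8% of all genes, and HSPA8 came nearest. On the sum scale HSPE1 was also past 2-fold in Kashmiri cows (1.06), and HSPA8 (1.23) and HSPE1 (1.05) were past it in Jersey cows, where HSPA8 (1.12) was also past it on the upper quartile scale. HSPA8 had a higher ratio than 88.7% of all genes in Kashmiri and 86.6% in Jersey cows. HSPE1 followed it in both breeds, with log2 ratios of 0.75 in Kashmiri and 0.79 in Jersey cows. The changes were therefore of 1 direction for most of these genes and modest in size, in a comparison where close to 1 gene in 3 passed 2-fold.

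The second comparison is July (D90) with December (D250), which shares the July values with the first. In Kashmiri cows 7 of the 8 genes had a lower value in December, beside 47.7% of all genes, HSPA4 being the exception at 0.17. On the upper quartile scale 6 were lower and on the sum scale 1, both described below. The median log2 ratio on the deposited FPKM was -0.32 beside 0.03 for all genes. None was past 2-fold, against 17.7% of all genes. In Jersey cows 7 of the 8 were lower, beside 40.6% of all genes, HSP90AA1 being the exception at 0.33 (8 were lower on the sum scale). The median was -0.60 beside 0.15 for all genes. HSPA8, HSPH1 and HSPB1 were past 2-fold and lower in Jersey cows, against 20.9% of all genes past 2-fold in either direction. HSPH1 in December was at 0.330 of its July FPKM (log2 ratio -1.50), and 1.22% of all genes had a lower ratio. HSPB1 was at 0.413 of its July FPKM (log2 ratio -1.27), and 2.15% of all genes had a lower ratio. For HSPA8 that share was 2.82%.

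The third comparison is March (D15) with December (D250), the 2 ends of the sampled lactation. In Kashmiri cows 5 of the 8 genes were above 0 and 3 below, beside 48.1% of all genes above 0. The log2 ratios of the 8 lay between -0.31 (HSP90AA1) and 0.61 (HSPE1), and none was past 2-fold, against 25.7% of all genes. On the sum scale HSPA8, HSPA4, HSPB1 and HSPE1 were past 2-fold and higher in Kashmiri December, beside 4692 of 11878 genes. The median of all genes was 0.81 on that scale. In Jersey cows 3 were above 0 and 5 below, beside 47.9% of all genes below 0. HSPB1 alone was past 2-fold, at 0.323 of its March FPKM (log2 ratio -1.63), against 42.4% of all genes. HSP90AA1 was the highest of the Jersey ratios, 1.84-fold above March (log2 ratio 0.88). Despite the large share of genes that differed between these 2 months in Jersey cows, 7 of the 8 heat shock genes stayed within 2-fold.

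**Figure D2:**
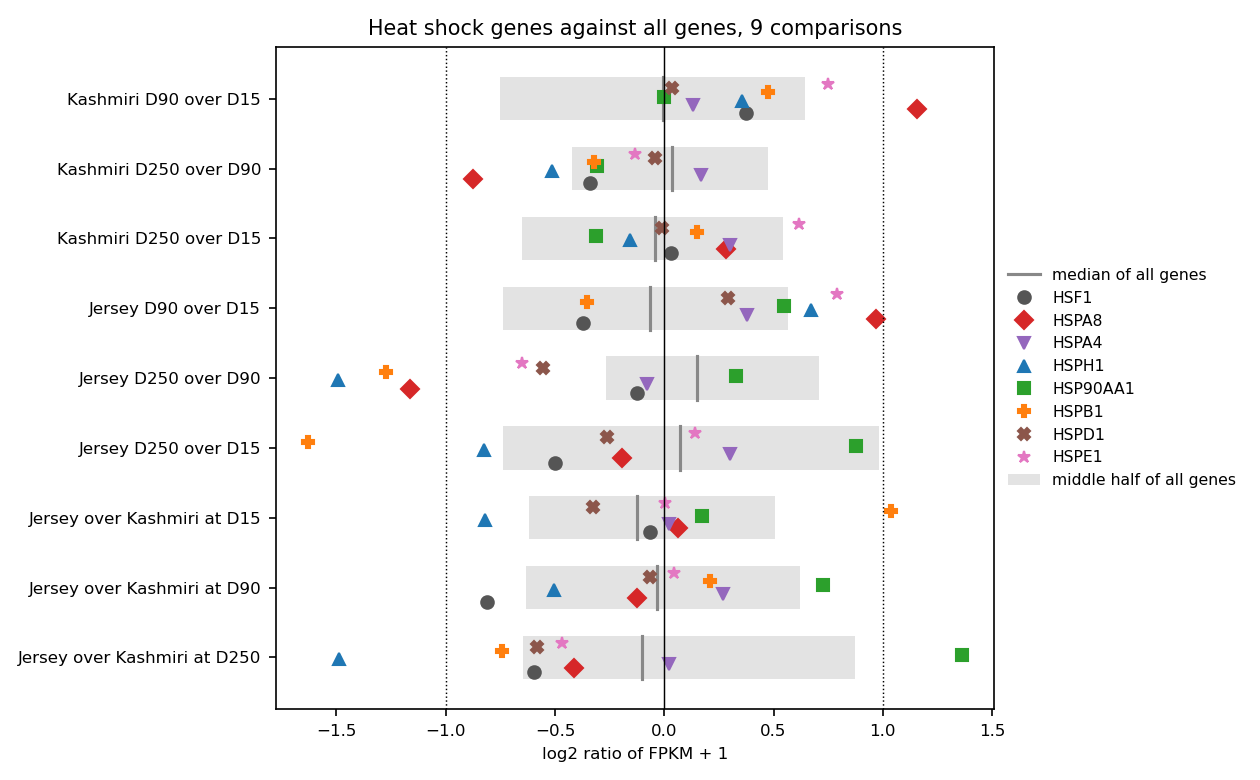
log2 ratio of FPKM + 1 (horizontal axis) of each of the 8 measured heat shock genes in 9 comparisons, 6 between days within a breed and 3 of Jersey over Kashmiri cattle on a day, with the middle 50% of all genes tested in grey and their median as a line. HSPA8 stood farthest to the right in the March to July comparison of both breeds, at 1.16 and 0.97, and HSPH1, HSPB1 and HSPA8 stood farthest to the left in the July to December comparison of Jersey cows, at -1.50, -1.27 and -1.16.

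Taking the 3 days together, July was the highest for 6 of the 8 genes in Kashmiri cows, all but HSP90AA1 (highest at D15) and HSPA4 (highest at D250), where D90 was the highest for 32.1% of 12342 genes. It was the highest for 5 of the 8 in Jersey cows, all but HSF1 and HSPB1 (highest at D15) and HSP90AA1 (highest at D250), where D90 was the highest for 16.7% of all genes. In both breeds at once it was the highest for 4 of the 8, HSPA8, HSPH1, HSPD1 and HSPE1, beside 7.45% of all genes. None of the 8 was highest in March in both breeds, and none was highest in December in both. Genes are not independent of each other and no test was made of these counts.

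These counts depended on how the 6 columns were put on 1 scale. Once each column was divided by its summed FPKM without milk protein genes, all genes had a median log2 ratio from July to December in Kashmiri cows of 0.63 and not 0.03, because the Kashmiri December column had the lowest sum of the 6. On that scale July was the highest for 1 of the 8 genes in Kashmiri cows (HSPA8), with the other 7 highest in December, and for 6 of the 8 in Jersey cows, and D90 was the highest in both breeds for 4.50% of all genes. Rescaled by the upper quartile, July was the highest for 6 of the 8 in Kashmiri cows, 5 of the 8 in Jersey cows and 3 in both, beside 10.1% of all genes. HSPA8 was highest in July in both breeds on all 3 scales. Its log2 ratio from March to July was 1.16, 1.47 and 1.33 in Kashmiri cows and 0.97, 1.23 and 1.12 in Jersey cows on the FPKM, sum and upper quartile scales. Its log2 ratio from July to December was -0.87, -0.18 and -0.77 in Kashmiri cows and -1.16, -1.58 and -1.42 in Jersey cows on the same scales. The Kashmiri decrease after July is thus the part of the HSPA8 pattern whose size hung most on the scale, and for HSF1, HSPH1, HSP90AA1, HSPB1, HSPD1 and HSPE1 the Kashmiri July to December ratio was above 0 on the sum scale, between 0.16 (HSPH1) and 0.64 (HSPD1). In Jersey cows HSPH1 (-1.88), HSPB1 (-1.69), HSPA8 and HSPE1 (-1.07) were past 2-fold and lower in December on the sum scale, while HSP90AA1 turned from 0.33 to -0.09.

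**Figure D3:**
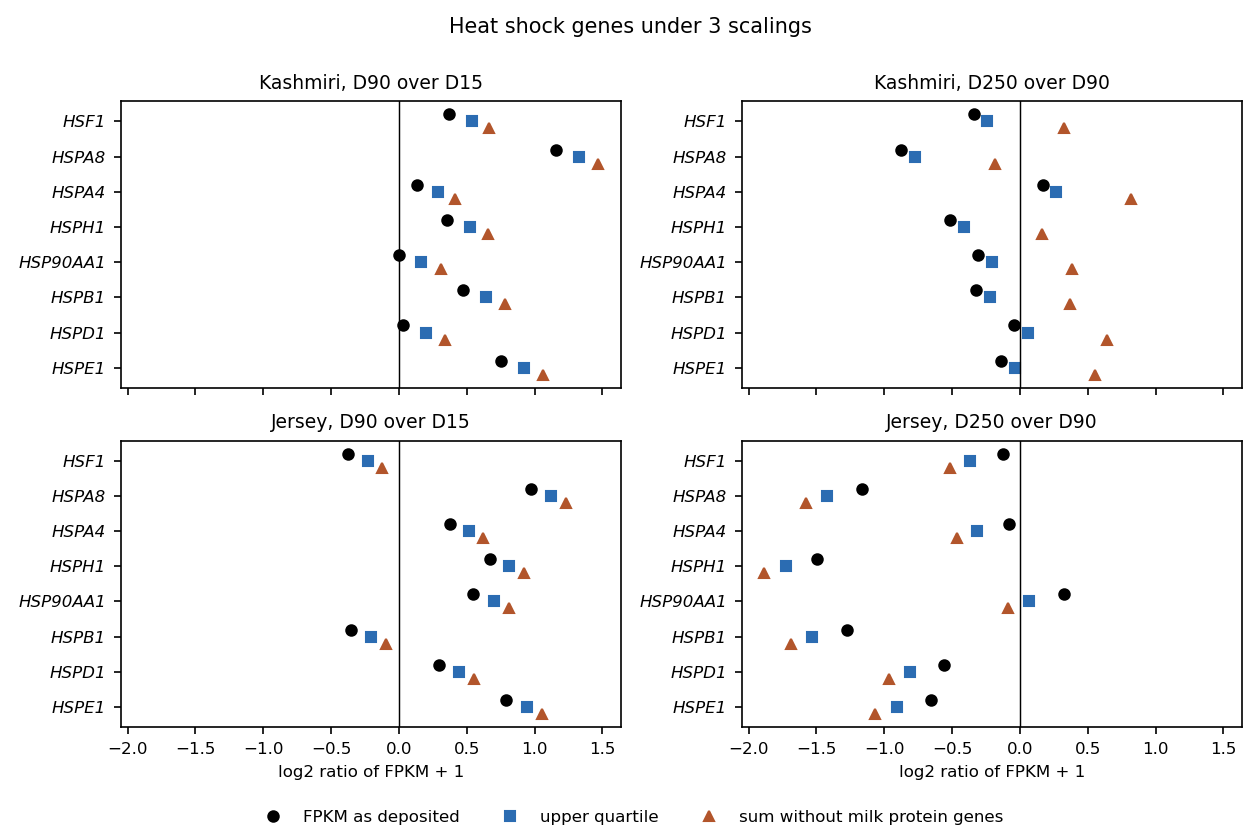
log2 ratio (horizontal axis) of the 8 measured heat shock genes from March to July and from July to December in each breed, on the FPKM as deposited and after rescaling to the summed FPKM or to the upper quartile. HSPA8 kept its direction on all 3 scales in both breeds, whereas 6 other genes passed from below 0 to above 0 on the sum scale in the Kashmiri July to December comparison.

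The breeds were then compared on each day. At D15, HSPB1 was 2.05-fold higher in Jersey cows (log2 ratio 1.04) and was the only one of the 8 past 2-fold, against 28.9% of all genes. The ratio fell just below 2-fold, at 0.92, on the upper quartile scale. At D90 none of the 8 was past 2-fold, against 32.9% of all genes, and the most distant were HSF1 (log2 ratio -0.81) and HSP90AA1 (0.72), the latter past 2-fold on the sum scale at 1.06. HSPA8 (-0.12), HSPD1 (-0.07) and HSPE1 (0.05) lay close to equal between the breeds in July. At D250, HSPH1 in Jersey cows was at 0.332 of the Kashmiri FPKM (log2 ratio -1.49) and HSP90AA1 was 2.57-fold higher in Jersey cows (log2 ratio 1.36), against 34.5% of all genes past 2-fold. The HSP90AA1 ratio was below 2-fold on both rescaled axes, at 0.86 by the upper quartile and 0.59 by the sum, while HSPH1 was lower and HSP90AA1 higher in Jersey cows on every day and all 3 scales. In all, 6 of the 8 genes were lower in Jersey cows in December, all but HSP90AA1 and HSPA4 (0.02), beside 53.8% of all genes. On the sum scale HSPA4 joined them at -0.70, and 6 were past 2-fold and lower. On that scale 4519 of 12073 genes were past 2-fold and lower, and the median of all genes was -0.75. On the upper quartile scale HSPA4 was also below 0 (-0.44). There HSF1 (-1.07), HSPH1 (-1.95), HSPB1 (-1.24) and HSPD1 (-1.07), 4 of the 8, were past 2-fold and lower. So were 3135 of 11780 genes on that scale, where the median of all genes was -0.52.

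The change between days also differed in size between the breeds, a difference that could not be tested. From March to December the log2 change of HSPB1 in Jersey minus that in Kashmiri cows was -1.78 (-1.63 against 0.15), and it was -2.94 on the sum scale. HSP90AA1 changed by 1.19 more in Jersey cows (0.88 against -0.31), a difference that was 0.81 on the upper quartile scale and 0.03 on the sum scale. From July to December the difference for HSPH1 was -0.98 (-1.50 in Jersey against -0.51 in Kashmiri cows), and it was -2.04 on the sum scale. From March to July HSF1 differed in direction, with log2 ratios of 0.37 in Kashmiri and -0.37 in Jersey cows, and these signs were kept on the sum scale (0.67 and -0.13) and the upper quartile scale (0.53 and -0.23). HSPB1 likewise was above 0 in Kashmiri (0.47) and below 0 in Jersey cows (-0.36) in that comparison, on all 3 scales.

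The rest of the chaperone machinery was described with 84 genes in 10 lists, of which 73 were found and 67 reached 1 FPKM in a group. From March to July 1 of 64 was past 2-fold and higher and 8 lower in Kashmiri cows, and 3 of 64 were higher and 10 lower in Jersey cows, with medians of -0.12 and -0.21. These are 14.1% and 20.3% of the lists, beside 33.5% and 29.8% of all genes. From July to December 3 of 66 were higher and 1 lower in Kashmiri cows, and 4 of 65 were higher and 5 lower in Jersey cows, or 6.06% and 13.8% beside 17.7% and 20.9% of all genes. From March to December 2 of 66 were higher and 8 lower in Kashmiri cows. In Jersey cows 4 of 65 were higher and 18 lower. These are 15.2% and 33.8%, beside 25.7% and 42.4% of all genes. All these counts past 2-fold were made on the deposited FPKM only. On the sum scale HSPA14 (1.73), BAG3 (1.66), HSP90B1 (1.32) and STIP1 (1.18) were past 2-fold and higher in Kashmiri December than in March. CIRBP (-0.90) and HSPA1B (-0.76) were among those below 0 there, and the median of all genes was 0.81. July was the highest of the 3 days in both breeds for 12 of the 67 (17.9%, against 7.45% of all genes), beside 1 on the sum scale and 15 on the upper quartile scale, and none of the 12 kept this on all 3 scales, as HSPA8 did. The 12 were HSPA14, the HSP40 genes DNAJA1 and DNAJC7, the linker gene STIP1, the HSP90 co-chaperone genes AHSA1 and SUGT1, the TRiC genes TCP1, CCT2 and CCT4, the prefoldin genes PFDN4 and VBP1, and HSP90B1.

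Within the HSP70 family the inducible genes did not share the July peak of HSPA8, except HSPA6 in Jersey cows after rescaling. HSPA1B, an inducible HSP70 gene with a near-identical copy HSPA1A that reads may be shared with, was at 1058, 430 and 309.5 FPKM in Kashmiri cows and at 593, 350 and 101 FPKM in Jersey cows on the 3 days. March was its highest day and December its lowest in both breeds, except that Kashmiri December stood above July on the sum scale (log2 ratio 0.22). The ratio of HSPA8 to HSPA1B was 0.483, 2.66 and 2.01 in Kashmiri cows and 0.901, 2.99 and 4.60 in Jersey cows, so that HSPA1B was the more abundant only in March. This ratio within a group does not depend on the scale of the column. HSPA6, another inducible HSP70 gene, was at 43.6, 15.8 and 26.6 FPKM in Kashmiri cows and at 44.4, 40.7 and 16.0 FPKM in Jersey cows. HSPA14, a ribosome-associated HSP70, was at 7.47, 15.0 and 13.9 FPKM in Kashmiri and at 10.2, 22.9 and 20.9 FPKM in Jersey cows, and HSPA13 stayed between 1.60 and 6.24 FPKM. In the list of 10 HSP70 and HSP110 genes beside the members, 5 were tested. HSPA1B and HSPA6 were past 2-fold and lower from March to July in Kashmiri cows and from July to December in Jersey cows. HSPA13 and HSPA14 were past 2-fold and higher from March to July in Jersey cows, and in Kashmiri cows on both rescaled axes. The Kashmiri March to July ratio of HSPA1B fell just short of 2-fold on the sum scale (-0.99).

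Among the helpers of HSP70, STIP1 (HOP), which hands clients from HSP70 to HSP90, was at 45.3, 82.3 and 51.7 FPKM in Kashmiri and at 30.7, 59.8 and 25.3 FPKM in Jersey cows. Its ratio to HSPA8 stayed between 0.0541 and 0.0886 over the 6 groups. BAG1 and HSPBP1, which release nucleotide from HSP70, and the ubiquitin ligase gene STUB1 (CHIP) were highest in March in both breeds on the FPKM scale. BAG1 was at 140, 48.3 and 97.4 FPKM in Kashmiri and at 73.7, 36.6 and 55.0 FPKM in Jersey cows, lowest in July in both. STUB1 was at 99.4, 40.3 and 50.0 FPKM in Kashmiri and at 77.2, 34.4 and 31.3 FPKM in Jersey cows. HSPBP1 was at 19.5, 9.93 and 10.4 FPKM in Kashmiri and at 25.5, 9.80 and 5.17 FPKM in Jersey cows. On the sum scale the Kashmiri peak of all 3 moved to December. Of 9 genes of this list tested on the deposited FPKM, 2 were past 2-fold and lower from March to July in each breed, and none was higher. On both rescaled axes STIP1 was past 2-fold and higher from March to July in both breeds. STUB1 fell short of 2-fold in that comparison on the sum scale in both breeds. Among the HSP40 co-chaperone genes, which stimulate the ATPase of HSP70, 10 were tested from March to July, of which none was past 2-fold in Kashmiri cows and 1 (DNAJB2) was lower in Jersey cows. DNAJB2 was at 102, 110 and 54.8 FPKM in Kashmiri and at 43.9, 12.8 and 13.6 FPKM in Jersey cows, and DNAJA4 was at 20.4, 16.0 and 11.4 against 4.33, 3.37 and 1.39 FPKM.

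Of the 10 co-chaperone genes of HSP90, none was past 2-fold between days in Kashmiri cows on the deposited FPKM. In Jersey cows 3 were past 2-fold and lower in December than in March. CHORDC1 was past 2-fold and higher from March to December in Kashmiri cows on the sum (1.73) and upper quartile (1.13) scales. In Jersey cows it was past 2-fold and higher from March to July on the same scales (1.13 and 1.02). FKBP4, an immunophilin that guides steroid receptors, was at 148, 95.7 and 92.0 FPKM in Kashmiri and at 109, 47.6 and 35.9 FPKM in Jersey cows. FKBP5, a related gene that glucocorticoids induce, was at 33.6, 36.6 and 27.3 FPKM in Kashmiri and at 8.89, 8.76 and 16.0 FPKM in Jersey cows. UNC45A, a chaperone of myosin, was between 8.51 FPKM (Jersey December) and 21.3 FPKM (Kashmiri March). CHORDC1 stayed between 3.46 and 8.67 FPKM. FKBP5 had its highest Jersey value in December, as HSP90AA1 did.

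The small heat shock protein genes beside HSPB1 did not share 1 pattern. CRYAB, the alpha-B crystallin, was at 83.0, 68.1 and 167 FPKM in Kashmiri and at 126, 17.3 and 75.5 FPKM in Jersey cows, with its July value the lowest in both breeds on the FPKM and upper quartile scales and the sum scale putting Kashmiri March and July nearly equal (log2 ratio 0.03). HSPB6 was also lowest in July in both breeds, at 1.72 FPKM in Kashmiri and 0.463 FPKM in Jersey cows, and highest in December, at 4.69 and 3.42 FPKM. HSPB11 was instead highest in July in Jersey cows, at 2.05, 7.18 and 5.21 FPKM, and was highest in December in Kashmiri cows, at 4.53 FPKM. HSPB8 was below 1 FPKM in all groups except Kashmiri December (9.37 FPKM). The study lists it among its largest changes from D90 to D250 in Kashmiri cattle. Among the heat shock factor genes other than HSF1, HSF4 was at 1.81, 2.70 and 3.21 FPKM in Kashmiri and at 16.9, 9.94 and 4.97 FPKM in Jersey cows, and HSF2 stayed between 1.34 and 2.73 FPKM. HSBP1, whose protein binds HSF1 trimers, was at 84.7, 83.1 and 132 FPKM in Kashmiri and at 71.5, 121 and 107 FPKM in Jersey cows.

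**Figure D4:**
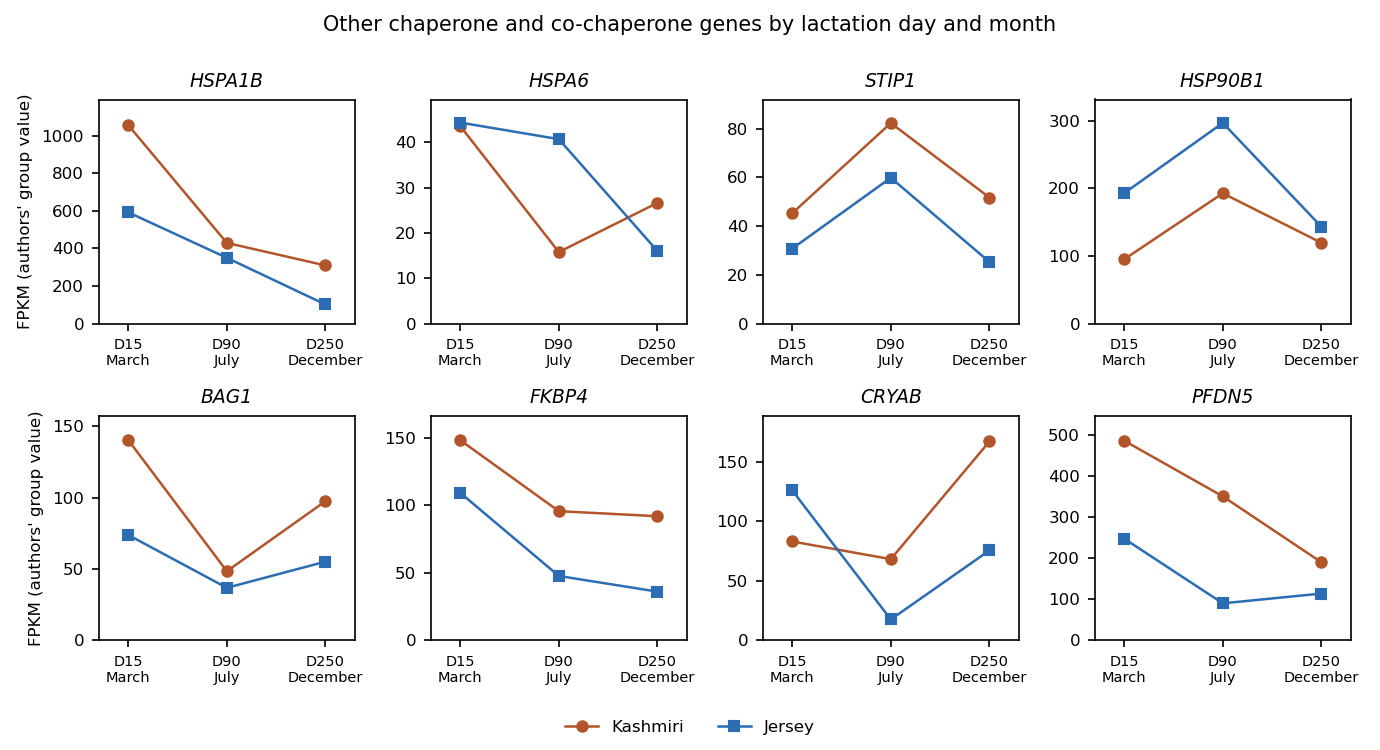
FPKM (vertical axis, from 0, a separate scale for each gene) of 8 chaperone and co-chaperone genes beside the members on each day and month, with 1 authors' group value for each breed. HSPA1B was highest in March in both breeds on all 3 scales, whereas STIP1 and HSP90B1 were highest in July in both on these values and in Kashmiri December on the sum scale.

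The TRiC chaperonin folds actin and tubulin, which prefoldin brings to it. Of 12 genes tested on the deposited FPKM, none was past 2-fold and higher between days in either breed. From March to December 3 were past 2-fold and lower in Kashmiri and 4 in Jersey cows. Log2 ratios on the rescaled axes were taken only for CCT3, PFDN1, PFDN5 and PFDN6 of this list. Of these, CCT3 from March to July (1.12) and PFDN6 from July to December (1.02) were past 2-fold and higher in Kashmiri cows on the sum scale. The counts of this list therefore hold for the deposited FPKM only, and the median of all genes from March to December in Kashmiri cows was 0.81 on the sum scale. PFDN1, PFDN5 and PFDN6 were highest in March in both breeds on all 3 scales, with PFDN5 at 485, 350 and 189 FPKM in Kashmiri and at 247, 89.4 and 113 FPKM in Jersey cows. CCT3 was at 103, 181 and 83.7 FPKM in Kashmiri and at 119, 94.2 and 50.6 FPKM in Jersey cows. Of the 9 mitochondrial genes beside HSPD1 and HSPE1, none was highest in July in either breed, except 1 in Jersey cows on either rescaled axis, and 6 were highest in March in both breeds (3 on the sum scale). CLPP, the matrix protease, was at 91.1, 25.5 and 32.4 FPKM in Kashmiri and at 75.3, 20.7 and 14.0 FPKM in Jersey cows, and TRAP1, the mitochondrial HSP90, was at 37.4, 28.4 and 17.6 FPKM in Kashmiri and at 34.4, 17.7 and 12.4 FPKM in Jersey cows, both highest in March on all 3 scales. CLPX, the unfoldase partner of CLPP, in an entry joined with CILP, ran the other way, at 6.15, 9.56 and 10.6 FPKM in Kashmiri and at 5.51, 9.11 and 20.0 FPKM in Jersey cows. HSCB, an iron-sulfur cluster co-chaperone gene in an entry joined with CCDC117, was at 42.1, 22.9 and 22.3 FPKM in Kashmiri and at 34.2, 15.3 and 12.9 FPKM in Jersey cows. In the endoplasmic reticulum HSP90B1 was at 95.0, 193 and 119 FPKM in Kashmiri and at 193, 297 and 143 FPKM in Jersey cows, and HSPA5 was not analysed here. Of the cold-inducible RNA binding protein genes, RBM3, counted in an entry joined with WDR13, was highest in March in both breeds, at 130 FPKM in Kashmiri (December on the sum scale) and 137 FPKM in Jersey cows. CIRBP, in an entry joined with C19orf24 and MIDN, was at 387, 116 and 103 FPKM in Kashmiri and at 269, 167 and 342 FPKM in Jersey cows, so that it was lower in July than in March in both.

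The genes most like a member over the 6 groups were found by Pearson's r of log2(FPKM + 1) among 4655 genes with a mean of 10 FPKM or more, as a description over 6 pooled values. HSPA8 was most like YBX1 (r = 0.97), a cold shock domain protein that binds mRNA, CCR7 (0.96), a chemokine receptor of lymphocytes and dendritic cells, and SUGT1 (0.95), and 14 genes reached 0.9. YBX1 was at 351, 593 and 419 FPKM in Kashmiri and at 335, 599 and 363 FPKM in Jersey cows. HSPH1 was most like NMT1 (0.98) and HSPD1 (0.98). HSP90AA1 was most like ATF4 (1.00 after rounding), a factor of the integrated stress response, with 444 genes at 0.9 or above. ATF4 was at 599, 543 and 453 FPKM in Kashmiri and at 670, 1147 and 1679 FPKM in Jersey cows. HSPB1 was most like ARL2 (0.99), with 25 genes at 0.9 or above. Between members the highest r after HSPH1 and HSPD1 was that of HSPA8 with HSPE1 (0.88), and the lowest was that of HSF1 with HSP90AA1 (-0.86).

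Marker genes of the cells that milk holds moved across the same groups, and in pooled cells fewer cells of a type and less RNA per cell cannot be told apart. The summed FPKM of 13 epithelial marker genes was 7711, 1011 and 4140 in Kashmiri and 3078, 295 and 2371 in Jersey cows at D15, D90 and D250. It was lowest in July in both breeds, when HSPA8 was highest, and came mostly from KRT19, ELF5 and XDH. KRT5 (6.03 FPKM) and KRT14 (0.731 FPKM) were instead highest in July in Kashmiri cows, as was KRT14 in Jersey cows (1.26 FPKM). The summed FPKM of 8 neutrophil marker genes (12 had been listed) was 189, 509 and 626 in Kashmiri and 5078, 5610 and 14108 in Jersey cows, higher in Jersey cows on each day and highest in Jersey December, when HSP90AA1 was highest. The summed FPKM of 10 macrophage marker genes was 109, 483 and 491 in Kashmiri and 1014, 2145 and 1852 in Jersey cows. Its members did not move as 1 in Jersey cows. CD68 was at 169, 1211 and 996 FPKM there, and CD14, CD163, CSF1R and MRC1 were also above March on both later days. C1QA, C1QB and C1QC instead fell on each later day, with C1QC at 144, 42.9 and 6.80 FPKM. MSR1 was highest in July, and MARCO was under 1 FPKM in every group. For 10 T and NK cell marker genes the sum was 394, 1561 and 354 in Kashmiri and 283, 176 and 96.8 in Jersey cows. This sum was highest in Kashmiri July, when HSF1 was highest. That of 6 B cell marker genes stayed between 10.7 and 74.9, and both red blood cell marker genes found were under 1 FPKM in every group. The part of the cell types in the values of the heat shock genes was not tested.

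**Figure D5:**
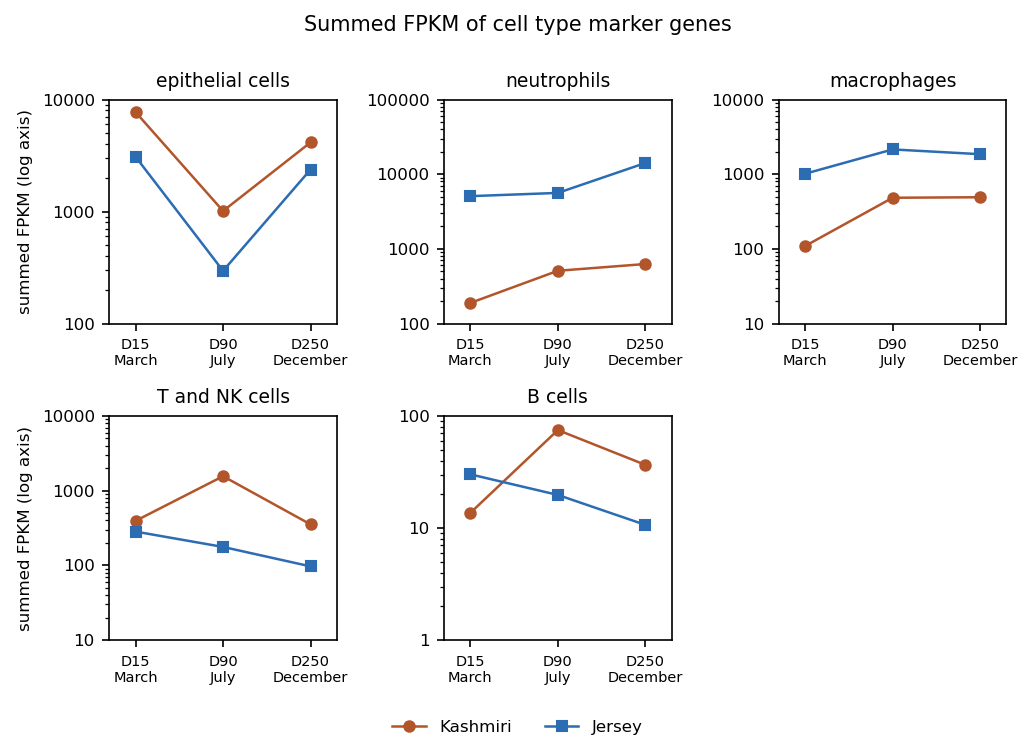
Summed FPKM (vertical axis, logarithmic) of the marker genes of 5 cell types on each day and month, with 1 value for each breed. The epithelial sum was lowest in July in both breeds (1011 in Kashmiri and 295 in Jersey cows), and the neutrophil sum was higher in Jersey than in Kashmiri cows on all 3 days.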

How the data were processed

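Libraries were made with a stranded mRNA kit from milk cells captured with a keratin 18 antibody. Per the study's methods, reads were trimmed, aligned to the bovine genome UMD3.1 with the Bowtie and TopHat tools and summarised with Cufflinks and Cuffdiff, and the labels name Bowtie2 and UMD3.1. The deposited table holds the authors' FPKM values, 1 per gene entry for each breed and stage (61264 entries, 25121 of them named), so cows of a group were already pooled. The columns marked Local were taken as Kashmiri. Such pooling hides any single outlying cow, entries that join neighbouring genes cannot be split, and FPKM are shares of a library, so a few abundant transcripts move all others. Of the named entries, 20.7% were at 0 in all groups.

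Log2 ratios of FPKM + 1 were computed for genes with 1 FPKM or more in either group, with pandas 2.3.3 under Python 3.11.15 (numpy 2.4.6), figures were drawn with matplotlib 3.10.9, and the calculation was checked on simulated data. No test or interval was possible from the pooled values, and the study's own tests were not used. Alternatives were a pseudocount of 0.1, no lower limit, a log2 ratio of 2, the sum of repeated entries, and rescaling by the upper quartile or to the summed FPKM of named genes without 6 milk protein genes. Counts of genes highest at D90, and leaving out HSPD1 and HSPE1, were added after seeing the data. All members were named, together with up to 4 genes of each list with the widest range over the groups and 3 genes of most similar pattern for each of 4 members, of which the text gives some. The genes most often highest at D90 were named after their values were seen. The members and lists were chosen with earlier results of these data known. Promoter motifs listed in the plan were not analysed here.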

Additional observations from a re-analysis of the deposited data

How the results depend on the processing

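Rescaling to the summed FPKM moved the most. The median log2 ratio of the 8 genes went from -0.32 to 0.38 for Kashmiri July to December, from 0.09 to 1.07 for Kashmiri March to December, and from -0.53 to -1.28 for Jersey over Kashmiri in December, and the number of genes highest in July in Kashmiri cattle went from 6 to 1. The medians of all genes moved with it in these comparisons, from 0.03 to 0.63, from -0.04 to 0.81 and from -0.10 to -0.75. By construction this scale divides each column by its sum, which was lowest for Kashmiri December. Of 72 single ratios, 24 moved by more than 0.58 on the log2 scale and 17 changed sign under it, and none moved that far and 9 changed sign under the upper quartile. Leaving out HSPD1 and HSPE1 took the number highest in July in Jersey cattle from 5 of 8 to 3 of 6. A pseudocount of 0.1, no lower limit and summed entries moved no ratio of a member by more than 0.58, and at a log2 ratio of 2 none of the 8 genes was past the limit in any of the 9 comparisons. No paired analysis was possible because each group had 1 pooled value, and for the same reason no cow could be left out. The study gives read totals for each library, but the reads behind each gene's group value are unknown. Precision could therefore not be stated for any gene.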
